A study of Mus musculus with 2 samples.

Results

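The 331 miRNA names described here are the mouse names from miR-6896 to miR-7094, a stretch of the nomenclature made up largely of mirtron-type hairpins. They were taken by number from the tables of both libraries, with any letter or arm suffix, and are 331 of the 1477 miRNA names counted in either library. Of these, 169 are 3p names and 162 are 5p names, from 197 hairpins. The study has 1 group of 2 libraries, labelled replicates 1 and 2, from mouse skin keratinocytes cultured in a low-calcium medium. The cells carried an exogenously expressed Dsp-BirA fusion, which joins desmoplakin, a protein of the desmosomal plaque, to the biotin ligase BirA, and were given biotin. RNA bound to biotinylated proteins was recovered on streptavidin beads after RNase treatment, to ask what Argonaute proteins do at the plaque. Both libraries share the fusion and the biotin, no input or unlabelled control was analysed here, and the labels do not say whether the replicates came from separate cultures, so their spread may be technical. Because exogenous expression drives the label, the values describe what the beads recovered from cells with the fusion, with nothing to set them against.

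Replicate 1 held 3776893 miRNA counts and replicate 2 held 4122955. A count of 0 therefore allows up to 3 counts, or 0.794 counts per 1000000 miRNA counts (CPM) in replicate 1 and 0.728 CPM in replicate 2. Such limits and every interval below cover counting error only, since the reads carry no stated molecular identifiers. All 7 epithelial marker miRNAs were found in both libraries and took 10.6% of the counts in each. The markers of liver, muscle, nerve, blood and mesenchyme each took between 0.000450% and 0.0114% of a library.

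A mirtron is a short intron that folds into a hairpin once it has been spliced out and debranched, so that splicing stands in for the Drosha cut that releases other miRNA hairpins. Dicer then cuts off the loop, and either arm can be loaded into an Argonaute. Introns begin with GU and end with AG after a pyrimidine-rich tract, so a 3p arm that reaches the end of the intron carries that AG. In a 5′-tailed mirtron only the 3′ end of the hairpin is set by splicing, and the tail before the 5p arm is trimmed away.

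The sequences of the block carried the mark of an intron end on one arm. Of the 331 names, 292 (88.2%) had a mature sequence in the RefSeq table for GRCm38.p6, the assembly that mm10 also names. Among the 151 of these that were 3p names, 115 (76.2%) ended with AG, 100 with CAG and 14 with UAG. For comparison, 41 of 371 3p names found outside the block (11.1%) and 196 of all 709 mouse 3p names in the table (27.6%) ended with AG. On the 5p arm this end was present in 6 of 141 block names (4.26%) and in 24 of 366 other names found (6.56%). A 5p start of GU, the first bases of an intron, was seen in 13 of 141 block names (9.22%) and in 18 of 366 others (4.92%). The median 3p sequence of the block held 72.7% C and U (quartiles 66.7% and 77.3%), against 54.5% in other 3p names found. The median 5p sequence held 45.5% G (quartiles 39.1% and 50.0%), against 28.6%. These shares describe the reference sequences of the names found and were not tested. An AG end was as common among all block 3p names in the table, at 138 of 177 (78.0%). Among those not found it was 23 of 26 (88.5%). The end is thus a trait of the block's names, not of what the beads recovered.

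**Figure D1:**
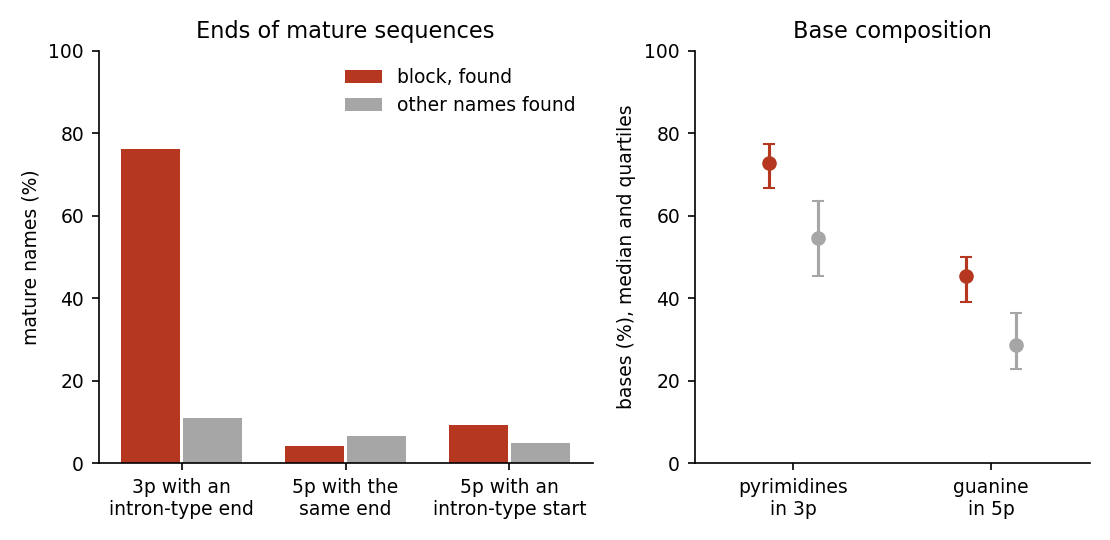
Sequence features of the mature names found in either library, for the block and for all other names. The left panel gives the percent of names with an intron-type end (the last bases of an intron) or start (its first bases), and the right panel the median percent of pyrimidines in 3p sequences and of guanine in 5p sequences with quartiles as bars. The 3p names of the block stand at 76.2% with an intron-type end against 11.1% of the other 3p names.

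The whole hairpins showed the same end. The table held 180 hairpins of the block, with a median length of 66 bases (quartiles 62 and 72) against 79 over all 1005 mouse hairpins in it. The last bases of the hairpin were AG in 167 of the 180 (92.8%) and in 238 of the 1005 (23.7%). The 3p sequence reached the last base of its hairpin in 127 of 172 cases (73.8%), against 248 of 692 over all hairpins (35.8%). The 5p sequence started at base 6 of the hairpin in 134 of 172 cases (77.9%), against 171 of 689 over all hairpins (24.8%). It started at the first base in 23 of 172 (13.4%), against 143 of 689 (20.8%). By position, 156 of the 180 hairpins (86.7%) lay inside the span of a protein-coding gene on the same strand, against 493 of the 1005 (49.1%). A further 22 lay in the span of a gene whose strand was not read, and 2 lay in no protein-coding gene. Exon and intron borders were not analysed here. The next 4 hairpins are shown because they belong to abundant members. Capitals mark the mature 5p and 3p sequences, read 5′ to 3′ from RefSeq.
Mir7068: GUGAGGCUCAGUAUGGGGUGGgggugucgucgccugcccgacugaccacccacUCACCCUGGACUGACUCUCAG
Mir7044: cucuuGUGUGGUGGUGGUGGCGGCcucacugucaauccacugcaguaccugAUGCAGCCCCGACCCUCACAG
Mir7052: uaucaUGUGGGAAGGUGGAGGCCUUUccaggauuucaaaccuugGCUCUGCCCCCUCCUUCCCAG
Mir7016: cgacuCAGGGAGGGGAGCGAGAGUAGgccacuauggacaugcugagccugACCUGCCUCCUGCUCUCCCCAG
Mir7068 starts with GU and ends with AG, as a complete short intron does, and its arms take up both ends. The other hairpins shown have 5 bases before the 5p sequence, and their 3p sequences run to the last base. Over the block, 21 of 180 hairpins (11.7%) both started with GU and ended with AG, against 30 of 1005 in all (2.99%). Mir7068 is at chr8:72470016-72470089 on the minus strand, within the gene of Cherp, an RNA-binding protein of the nucleus and endoplasmic reticulum. Mir7044 is at chr6:118085192-118085263 on the plus strand in Rasgef1a, a guanine nucleotide exchange factor gene. Mir7052 is at chr7:44470347-44470411 on the plus strand in Josd2, a deubiquitinase gene, and Mir7016 is at chr4:129684500-129684571 on the minus strand in Tmem39b. All coordinates are GRCm38.p6.

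The block was widely detected and thinly counted. In replicate 1, 264 of its names had at least 1 count, and in replicate 2, 267 (265.5 ± 2.12, SD, n = 2). They held 7840 counts in replicate 1, or 0.208% of the library (exact binomial 95% interval 0.203% to 0.212%), and 8865 counts in replicate 2, or 0.215% (0.211% to 0.220%). Thus 331 of 1477 names shared 0.211% ± 0.00526 of the counts (SD, n = 2), a share that was close in both libraries. The median member had a mean of 3.57 CPM, with quartiles of 1.19 and 6.89 CPM, and the highest had 126.8 CPM. Over all 1477 names the median was 4.99 CPM, with quartiles of 1.71 and 22.4 CPM. A mean of 100 counts per library or more was reached by 10 of 331 members (3.02%) and by 358 of 1477 names in all (24.2%). Against the reference rather than the tables, 292 of the 355 block names with a RefSeq mature sequence (82.3%) were found in at least 1 library, beside 1231 of all 1679 (73.3%). The block's share of found names was thus not low, while its levels were.

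The 10 most abundant members held 27.4% ± 2.04 of the block's counts (SD, n = 2). Their sequences show how the 3p and 5p names among them differ in composition. Capitals mark the seed, bases 2 to 8, which sets most of a miRNA's target pairing. miR-6952-3p and miR-6951-5p are also among the 10 and are named only.
miR-7068-5p: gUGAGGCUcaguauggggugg
miR-7044-5p: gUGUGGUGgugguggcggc
miR-6924-5p: aGAGGAUGgggauuuggcgaagu
miR-7016-3p: aCCUGCCUccugcucuccccag
miR-7000-3p: cACCCACCugccuguccuccag
miR-7052-3p: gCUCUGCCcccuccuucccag
miR-7083-3p: uCUGCUCUccuggaccccag
miR-7092-3p: uGUUCUUUguuuuguuugccuuag
The 5p sequences shown hold between 47.8% and 63.2% G. The 3p sequences shown hold between 70.0% and 81.0% C and U and end with AG. No seed is shared among these 8 names. In GRCm38.p6, miR-7000-3p is at chr2:92387384-92387405 on the minus strand, within the span of Mapk8ip1, the gene of a scaffold protein of the JNK pathway whose strand was not read here. miR-7083-3p is at chr9:21809941-21809960 on the minus strand, in Dock6. miR-7092-3p is at chrX:74317406-74317429 on the plus strand, in Fam50a. miR-6924-5p is at chr11:69882067-69882089 on the minus strand, within the span of Acap1, a GTPase-activating protein gene for ARF6, with the gene's strand again not read.

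miR-6952-3p led the block with 398 counts in replicate 1 and 611 in replicate 2, a mean of 126.8 ± 30.3 CPM (SD, n = 2), and stood at rank 217 of all names. miR-7068-5p followed with 421 and 428 counts, or 107.6 ± 5.42 CPM, at rank 229. The SD of the first is wide enough that their order does not hold: miR-7068-5p was the higher in replicate 1 and miR-6952-3p in replicate 2. miR-7044-5p had 236 and 332 counts (71.5 ± 12.8 CPM). miR-7016-3p had 287 and 173 counts (59.0 ± 24.1 CPM). These neighbours also exchanged places between the libraries. miR-7000-3p had 233 and 139 counts (47.7 ± 19.8 CPM), and miR-6951-5p had 237 and 107 (44.4 ± 26.0 CPM). Both were the higher in replicate 1, and they did not differ from each other beyond their spread. miR-7092-3p with 91 and 122 counts (26.8 ± 3.89 CPM) and miR-6924-5p with 106 and 99 counts (26.0 ± 2.87 CPM) were close in both libraries. miR-7052-3p and miR-7083-3p, described below, reached the list through 1 library each.

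**Figure D2:**
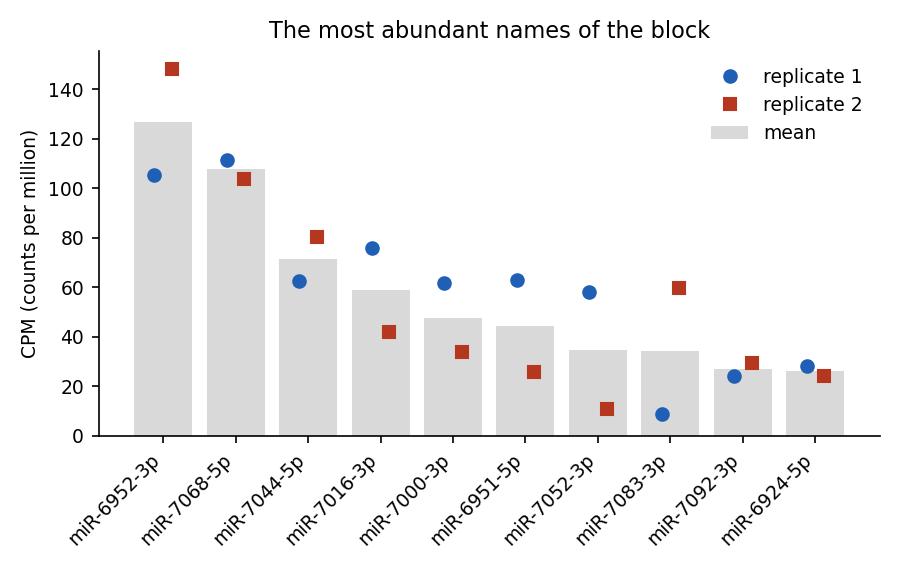
CPM (counts per 1000000 miRNA counts) of the 10 most abundant members, in order of the mean, with grey bars for the mean and points for each library. miR-7068-5p, miR-7092-3p and miR-6924-5p have close points, while miR-7052-3p lies at 58.2 CPM in replicate 1 and 10.9 CPM in replicate 2, and miR-7083-3p at 8.74 and 59.7 CPM.

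Recovery in both libraries was partial. Of the 331 members, 200 (60.4%) were found in both libraries, 64 in replicate 1 only and 67 in replicate 2 only, and over all 1477 names 66.8% were found in both. The share found in both rose with the mean count in the block and outside it. From 3 to 10 counts, 34 of 65 members (52.3%) were found in both, and 65 of 197 other names (33.0%). From 10 to 30 counts, the class that holds the most members, it was 84 of 124 (67.7%) and 177 of 276 (64.1%). From 30 to 100 counts it was 60 of 66 (90.9%) and 174 of 178 (97.8%), and all 10 members with a mean of 100 counts or more were found in both. Among the 200 members averaging 10 counts or more per library, 154 (77.0%) were found in both, beside 85.1% of all names at that level.

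**Figure D3:**
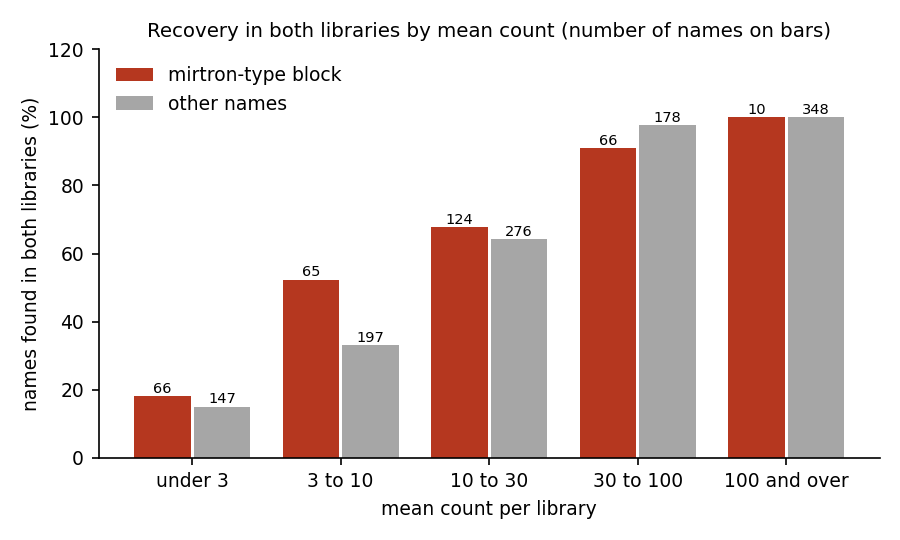
Percent of names found in both libraries, by class of mean count per library, for the block and for other names, with the number of names above each bar. In both groups the share climbs with the count, and the block stands at 67.7% and the other names at 64.1% from 10 to 30 counts.

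Members well counted in 1 library could be missing from the other. The 5 with the most counts were all 3p names, and 4 of their sequences were at hand, shown here with seeds in capitals.
miR-7059-3p: uGUUUGCUguuuguccucccag
miR-7012-3p: uGACCUGUggcuccucucccag
miR-6978-3p: aCGGCUUCacucucacccugcag
miR-7018-3p: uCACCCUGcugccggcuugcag
miR-6913-3p had 0 counts in replicate 1 and 115 in replicate 2, at least 35.1-fold higher in replicate 2 against the floor of 3 counts per library. miR-7059-3p, at chr7:126579474-126579495 on the minus strand in Cln3, a lysosomal membrane protein gene, had 0 and 91 counts. miR-6978-3p, at chr17:57217172-57217194 on the minus strand in the complement gene C3, had 0 and 72. These 3 were found in replicate 2 alone. In the other direction, miR-7012-3p, at chr3:90270191-90270212 on the plus strand in Dennd4b, had 80 counts in replicate 1 and 0 in replicate 2. miR-7018-3p, at chr4:137538349-137538370 on the plus strand in Hspg2, the gene of the basement membrane proteoglycan perlecan, had 67 and 0. The library that lacked the name thus differed from name to name.

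Differences between the libraries were set against counting error with an exact two-sided binomial test, adjusted by Benjamini-Hochberg over all 1002 names that averaged 10 counts or more. The test compares 2 libraries, not conditions. Of the 200 members tested, 143 (71.5%) differed at an adjusted p-value of 0.05, beside 70.6% of all names. Replicate 2 was higher for 76 of them (36.2% of all names tested were higher) and lower for 67 (34.3% of all names were lower). The size of the differences was wider in the block: the median absolute log2 ratio was 1.68 over the 200 members and 0.82 over all 1002 names, with a pseudocount of 0.5 counts. Within 2-fold were 71 of the 200 members (35.5%) and 55.5% of all names. By class of mean count the medians were nearer. They were 2.90 for members and 3.07 for other names from 10 to 30 counts, and 1.04 and 1.0 from 30 to 100 counts. From 100 counts they were 0.67 for the 10 members and 0.23 for the 348 other names, which reach far higher counts.

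Among members averaging 30 counts or more, the 3 largest ratios in each direction belonged to the 5 names at 0 in 1 library given above and to miR-7051-3p. miR-7051-3p, from the Etfb gene of an electron transfer flavoprotein, fell from 86 counts in replicate 1 to 2 in replicate 2, a log2 ratio of -5.55 (95% interval -8.62 to -3.66, exact binomial, adjusted p = 9.23e-24). Unlike the block 3p sequences printed, its sequence does not end with AG, and it holds 59.1% C and U. Of the 10 most abundant members, miR-7083-3p was the most uneven upward, with 33 and 246 counts and a log2 ratio of 2.77 (2.24 to 3.34, exact binomial, adjusted p = 4.45e-36). miR-7052-3p was the most uneven downward, with 220 and 45 counts and a log2 ratio of -2.42 (-2.91 to -1.95, exact binomial, adjusted p = 5.32e-31). By contrast miR-7068-5p had a log2 ratio of -0.10 (-0.30 to 0.095, exact binomial, adjusted p = 0.353). miR-7092-3p and miR-6924-5p had ratios of 0.30 (-0.11 to 0.70, adjusted p = 0.186, exact binomial) and -0.23 (-0.64 to 0.18, adjusted p = 0.312, exact binomial), and neither passed the threshold.

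**Figure D4:**
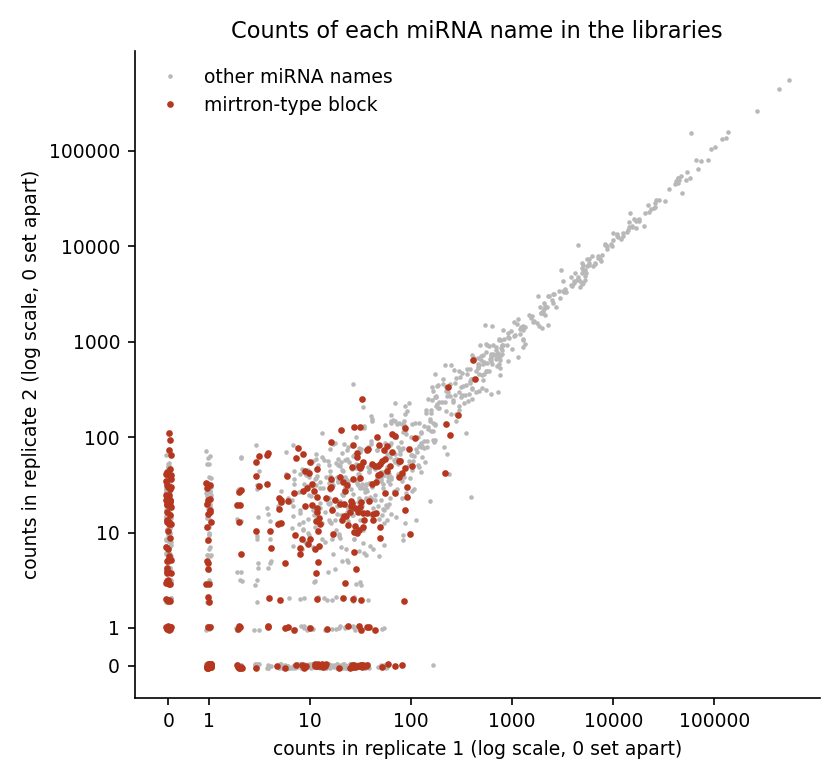
Counts of each miRNA name in replicate 1 (x axis) and replicate 2 (y axis) on log scales, with names at 0 set apart and points shifted slightly at random so that they can be told apart. Block names, in red, fill the lower left of the plot up to 398 and 611 counts (miR-6952-3p), and 131 of them lie on the lines where 1 library has 0 counts.

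The counts of the block lay on both arms. The 3p side held the larger share over all members, but not over hairpins with both arms found, where it held 49.6%. For the rest, the other arm may be missing from the authors' reference, which is not stated. 3p names held 56.2% of the block's counts in replicate 1 (exact binomial 95% interval 55.1% to 57.3%) and 57.6% in replicate 2 (56.5% to 58.6%), a mean of 56.9% ± 0.947 (SD, n = 2). Over all names with an arm suffix the mean was 37.4% ± 0.420. That share is weighted by counts, so a few abundant names can set it: miR-31-5p alone had a mean of 142121 CPM. Counted by hairpin, as below, the gap was narrower, with 3p ahead in 58.6% of block hairpins and 47.1% of all. Those shares are not matched for depth, and the shares by class of count are given below. 3p names were also the more often detected: 151 of 177 reference 3p names of the block (85.3%) and 141 of 178 5p names (79.2%) were found in either library, and 100 (56.5%) and 77 (43.3%) in both. Over the whole table the 3p and 5p shares found in both were 49.6% and 46.3%. The median member on the 3p arm had 4.24 CPM (quartiles 1.59 and 8.73) and on the 5p arm 2.86 CPM (0.916 and 5.37). The 3p members ending with AG did not stand above the others: their median was 4.16 CPM over 115 names, and that of the 36 with another end was 4.80 CPM.

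Both arms were found for 134 of the 197 hairpins, only the 3p arm for 35 and only the 5p arm for 28. Of the 134, 116 averaged 10 counts or more per library over both arms. The 3p arm held the most counts in 68 of these (58.6%), beside 47.1% of all 433 hairpins at that level, and the 5p arm in 48. Few block hairpins were deeply counted, so the shares are also given by depth. From 10 to 30 counts the 3p arm was ahead in 19 of 37 block hairpins (51.4%) and 35 of 73 others (47.9%). From 30 to 100 counts it was 45 of 70 (64.3%) and 40 of 74 (54.1%). From 100 counts it was 4 of 9 (44.4%) and 61 of 170 (35.9%). The same arm led in both libraries for 73 of the 116 (62.9%), 46 of them 3p and 27 5p, and for 72.3% of all hairpins. For the other 43 the arm that led changed between the libraries or could not be given in 1 of them. This share followed depth. The same arm led for 17 of 37 block hairpins from 10 to 30 counts (45.9%) and for 32 of 73 others (43.8%). From 30 to 100 counts it was 48 of 70 (68.6%) and 47 of 74 (63.5%), and from 100 counts 8 of 9 and 161 of 170.

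The arms were tested against the spread of the arm ratio between the libraries. For this, 3p over 5p counts were fitted for all 433 hairpins with edgeR's quasi-likelihood test. The library was a term, and p-values were adjusted by Benjamini-Hochberg. With only 2 libraries, each hairpin alone gives little information on that spread. In 2 of the 116 block hairpins (1.72%) the arms differed, beside 26.6% of all hairpins tested. Both had the higher 5p arm (17.1% of all hairpins did), and 0 had a higher 3p arm (9.47% of all hairpins did). At an unadjusted p under 0.05, edgeR passed 3 block hairpins (30% of all hairpins passed), 1 of them with the higher 3p arm (10.6% of all hairpins). DESeq2 gave an adjusted p for 95 block hairpins and called 13 (41.1% of all hairpins were called), with 6 higher on 3p (14.8% of all) and 7 on 5p (26.3% of all). The edgeR calls all lay at 100 counts or more, where 2 of 9 block hairpins and 113 of 170 others passed. Between 10 and 100 counts none of 107 block hairpins and none of 147 others did.

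miR-7044 was the clearest case. Its 5p arm had 236 counts in replicate 1 and 332 in replicate 2, and its 3p arm had 2 and 0 (edgeR adjusted p = 0.000248). The 3p arm took 0.840% of the hairpin's counts in replicate 1 (exact binomial 95% interval 0.102% to 3.0%). In replicate 2 it took 0 of 332, which allows up to 0.904%. miR-7068 had 421 and 428 counts on 5p and 95 and 23 on 3p, so that 3p took 18.4% (15.2% to 22.0%) and 5.10% (3.26% to 7.55%). Its fitted log2 ratio of 3p over 5p was -3.16 (edgeR adjusted p = 0.0419), which missed the threshold without the library term (adjusted p = 0.0528) and over hairpins of 100 counts or more alone (adjusted p = 0.0598). The 5p arm of miR-7068 had close counts in both libraries, and the difference between them lay in the 3p arm, with a log2 ratio of -2.17 (-2.90 to -1.50, exact binomial, adjusted p = 2.57e-12). The other arms of these and the following hairpins are shown with their seeds in capitals. Of the 5p names among them, miR-7052-5p holds 47.6% G and miR-7092-5p only 13.0%.
miR-7068-3p: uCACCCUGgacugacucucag
miR-7044-3p: aUGCAGCCccgacccucacag
miR-7052-5p: uGUGGGAAgguggaggccuuu
miR-7092-5p: aAAGGCAAacucacagaaucauu

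miR-6951 had 237 and 107 counts on 5p and 15 and 22 on 3p, with 5.95% and 17.1% of its counts on 3p (edgeR adjusted p = 0.266). The 5p arm led in both libraries, and DESeq2 called it (adjusted p = 0.0232). miR-7052 leaned the other way, with 220 and 45 counts on 3p and 14 and 0 on 5p (94.0% and 100% on 3p, edgeR adjusted p = 0.0907). The difference passed with edgeR over hairpins of 100 counts or more alone (adjusted p = 0.0444) and with DESeq2 (adjusted p = 0.00281). miR-7092 had 91 and 122 counts on 3p and 52 and 9 on 5p (63.6% and 93.1% on 3p, edgeR adjusted p = 0.687). Its 3p arm had the closer counts, and its 5p arm fell from 52 to 9 counts (log2 ratio -2.66, exact binomial, adjusted p = 6.27e-09).

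Several strong members had no counterpart at all. Among the 76 members averaging 30 counts or more, the other arm was listed for 63, and for 12 it has a RefSeq sequence and was listed in neither library. For 1, miR-6952-3p, the 5p arm had no RefSeq sequence and was listed in neither library. The 12 included 5p names. miR-7004-5p (62 and 67 counts), miR-7007-5p (29 and 62) and miR-6933-5p (4 and 62) lacked a listed 3p arm. miR-7016-3p was at least 77.5-fold higher than its 5p arm, miR-7000-3p at least 62.7-fold and miR-7083-3p at least 44.9-fold. Each bound sets the mean CPM of the 3p arm over the 2 libraries, taken without error, against the floor of 3 counts per library. It need not hold in each library: miR-7083-3p had 33 counts in replicate 1 and 246 in replicate 2, so its bound rests mainly on replicate 2. Whether the authors' reference held the unlisted arms of the 12 members is not stated, so their hairpins entered the arm test only as an alternative. With such arms set to 0, edgeR called 4 block hairpins higher on 3p of 145 tested (10.3% of all hairpins were so called), namely miR-7016, miR-7000, miR-7083 and miR-7013. miR-7013-3p, with 71 and 107 counts, had the fewest counts of the 4. The same 2 hairpins were called higher on 5p (14.6% of all hairpins were).

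**Figure D5:**
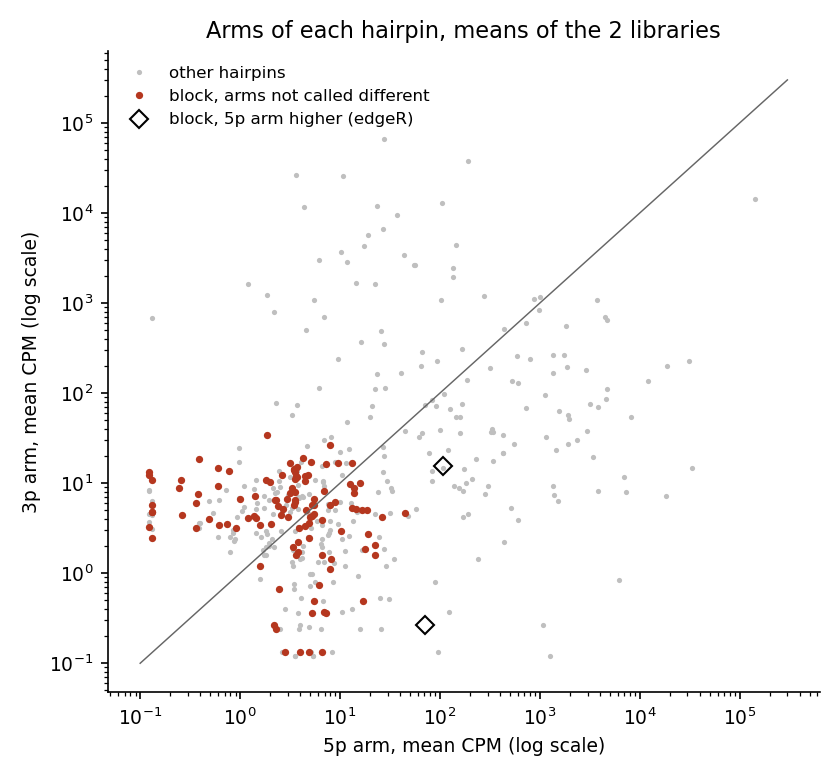
Mean CPM of the 5p arm (x axis) and of the 3p arm (y axis), both on log scales, for the 433 hairpins with both arms found and an average of 10 counts or more per library; the line marks equal arms. The block, in red, lies low on both axes and on both sides of the line, and the open diamonds mark miR-7068 and miR-7044, whose 5p arms were higher in the edgeR test.

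The mirtrons miR-877, miR-1224 and miR-702, which lie outside the numbered block, gave a scale for these levels. miR-877 comes from an intron of Abcf1, and its arms are shown with seeds in capitals because they are the most counted of the 3.
miR-877-5p: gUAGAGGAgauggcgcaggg
miR-877-3p: uGUCCUCUucucccuccuccca
miR-877-3p had 1101 and 664 counts (226.3 ± 92.2 CPM, SD, n = 2) and miR-877-5p 262 and 492 (94.4 ± 35.3 CPM). The 3p arm took 80.8% of the hairpin's counts in replicate 1 and 57.4% in replicate 2 (edgeR adjusted p = 0.317). Only miR-877-3p of these 6 names had a higher mean than miR-6952-3p, the first of the block. miR-702-3p had 344 and 217 counts, and miR-702-5p had 158 and 0 (edgeR adjusted p for the arms = 0.0856). miR-1224-5p had 47 and 72 counts and miR-1224-3p 33 and 3 (edgeR adjusted p for the arms = 0.769). The arm tests of these 3 hairpins all missed the threshold, and miR-702-5p, like 131 block names, was found in 1 library only.

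Within the block, seeds were mostly private to a member. The 292 members with a sequence carried 271 different seeds, and 40 members shared one with another member, in 19 groups of at most 3. The most counted 3p pair was miR-7092-3p and miR-6935-3p, with 92 counts in replicate 1 and 124 in replicate 2 summed, nearly all of them from miR-7092-3p. The next was miR-7018-3p and miR-7068-3p, both printed above with their shared seed, with 162 and 23 counts summed. Both members of the second pair were the higher in replicate 1. The other kind of overlap was with names found outside the block, for 38 of the 292. Neither kind was counted for other names, so these shares do not set the block apart. The most abundant such partner was miR-423-5p with 277.0 CPM, which shares its seed with miR-6921-5p (0 and 6 counts). miR-18a-3p with 166.8 CPM shares its seed with miR-7069-3p (13 and 0 counts), and miR-188-5p with 156.0 CPM shares its seed with miR-7061-3p (7 and 26 counts). These cases were chosen by the level of the partner, so that the block name was the minor one in each follows from the choice. In some other pairs, such as miR-7028-5p and miR-7662-5p, the block name was the higher. Of the 292 sequences, 0 were identical to or contained in that of another name found, and how the authors treated reads that match several names is not stated.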

How the data were processed

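The authors deposited 1 headerless table per library of whole-number counts per mature miRNA name. The submitters' processing notes name cutadapt, Novoalign and mm10, with no versions. The miRNA reference and the treatment of PCR copies, of reads matching several names and of chimeric reads are not given in the sources used here. Names missing from 1 table were set to 0. The 2 rows naming no miRNA were left out (0.00265% and 0.000218% of counts). CPM used library totals. With 1 group there was no test between conditions. Library differences were tested by exact binomial tests (scipy 1.17.1), and arms with edgeR 4.0.16 (R 4.3.3) over all hairpins averaging 10 counts or more, with library totals as sizes. DESeq2 1.42.0 and other scalings, filters and pseudocounts were alternatives. On simulated counts, the edgeR arm test recovered 27.0% of 8-fold changes over 433 hairpins, and the binomial test 65.0% of 2-fold changes over 1002 names. The arm simulation gave every hairpin the same set spread, and the other held counting error only, which the real libraries exceeded. Both ran over all names or hairpins, so neither share gives the power for the low counts of the block. Figures used matplotlib 3.10.9.

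Named were the 10 members with the highest mean CPM, the 3 largest ratios in each direction from a mean of 30 counts, the 5 most counted members found in 1 library, the 5 most counted hairpins with both arms, and 3 mirtrons outside the block. Other names were chosen after their values were seen. Members and lists were chosen with earlier results of these data known.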

Additional observations from a re-analysis of the deposited data

How the results depend on the processing

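Members found per library were 173.5 at a minimum of 10 counts in place of 265.5, and ranged from 264 to 267 with either library left out. The percent found in both libraries was 52.4% at 3 counts and 45.2% at 10, against 60.4%. At these minimums the share over all names was not computed, so the fall is not read as particular to the block. The block's share of counts was 0.246% in a total without miR-31-5p, 0.233% in a total of names numbered under 2000 plus members, 0.199% without miR-6952-3p, and 0.208% to 0.215% with either library left out. Members differing between the libraries were 7 of 10 tested at a mean of 100 counts (254 of 358 over all names), where fewer were tested, and stayed within 1.5 times of 143 under the other settings run. The median absolute log2 ratio was 1.36 with a pseudocount of 5 counts, 1.85 with no filter and 0.67 from 100 counts. Hairpins called higher on 3p were 6 of 95 with DESeq2 (54 of 365 over all hairpins), 1 of 9 from 100 counts (40 of 179), 4 of 145 with unlisted arms at 0 (55 of 535) and 29 of 116 by exact binomial tests passing in each library (105 of 433), against 0 of 116 (41 of 433). Hairpins higher on 5p were 1 of 116 without the library term (75 of 433), 7 of 95 with DESeq2 (96 of 365), 1 of 9 from 100 counts (75 of 179) and 22 of 116 by the binomial tests (145 of 433), against 2 of 116 (74 of 433). The binomial tests count reads and leave out the spread between libraries; for the other settings the cause was not tested. The percent of hairpins led by 3p was 44.4% from 100 counts (9 hairpins), against 58.6%, and 56.5% to 58.8% with either library left out. The share of block counts on 3p names was 54.2% without miR-6952-3p and 49.6% over hairpins with both arms found, against 56.9%, and 56.2% to 57.6% with either library left out. Mean CPM of the 21 named members moved by less than the SD under TMM and DESeq2 scaling, and 3 moved by more in a total without miR-31-5p. No paired analysis was possible between groups because the series holds 1; arms were compared within libraries through the library term.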
